A study of Equus caballus with 10 samples.

Results

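eca-miR-221 and eca-miR-222 are the horse forms of miR-221 and miR-222, and both were taken by name as 2 of the 239 miRNAs in the deposited tables. They were counted in all 10 libraries, at 349 or more counts each. Small RNA had been recovered from EV-recipient cells through 5-ethynyl uridine (5-EU), a uridine analogue that donor cells had built into new RNA over 48 h. The medium was then collected, the 48 h treatment was repeated, and extracellular vesicles (EVs) were isolated from the medium. Recipient cells came from metacarpophalangeal joints of abattoir horses, were used at passage 2 and were exposed to EVs for 24 h. The libraries of EV-recipient synoviocytes (n = 4) held cells that were kept at 25% oxygen and had received a pool of labelled chondrocyte EVs from 8 horses, and those of EV-recipient chondrocytes (n = 5) held cells that were kept at 5% oxygen and had received a pool of labelled synoviocyte EVs from 9 horses. The last library came from synoviocytes that had been given EVs of control chondrocytes grown without 5-EU. Its sample title says only synoviocyte, and the group row of the deposited tables and the study's figures mark it as the control, so it entered no test between groups and is called the unlabelled-EV library here. No genotype or strain applies. Recipient cell type, EV source, the amount of EVs given and oxygen changed together and cannot be told apart. The study reports more EVs per mL of medium for EV-recipient synoviocytes than for EV-recipient chondrocytes. Since EVs were pooled, the libraries of a group are separate recipient horses but share 1 EV preparation.

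miR-221 and miR-222 are small regulatory RNAs that share their seed, the bases near the 5′ end that pair with target mRNAs, and differ in the rest of the sequence. In human they are cut from neighbouring hairpins of a single transcript from the X chromosome. They are known in human cells to repress the cell cycle inhibitor p27 (CDKN1B), the receptor KIT and the metalloproteinase inhibitor TIMP3, and they are abundant in fibroblast-like and endothelial cells. In cartilage of cattle they are known to respond to mechanical load. No sequence is printed, as none was in use here.

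The miRNA counts of the labelled libraries spanned 4891 to 444408, and the unlabelled-EV library held 20330. Values are given as RPM, the share of a miRNA among all miRNA reads of a library, scaled to 1000000 reads. All RPM are therefore parts of a whole, and the largest part, eca-miR-21, took 267005 to 445226 RPM in EV-recipient synoviocytes and 167200 to 266997 RPM in EV-recipient chondrocytes. In bulk RNA of this kind, fewer cells and less RNA per cell cannot be told apart. The miR-140 arms, known from cartilage, were listed at 0 to 182 RPM in sum in EV-recipient synoviocytes and at 204 to 3805 RPM in EV-recipient chondrocytes. In the unlabelled-EV library they summed to 787 RPM, from 3 and 13 counts. That lay above all EV-recipient synoviocyte libraries and within the range of EV-recipient chondrocytes, and the reason was not tested. Of the markers of other cells, eca-miR-126-3p, which defines endothelium, was at 0 in 8 of 9 labelled libraries and had 3 counts in the other. The other arm, eca-miR-126-5p, was also at 0 in 8 and had 9 counts in 1. The epithelial miRNAs found summed to 0 to 1399 RPM in EV-recipient synoviocytes and 0 to 204 RPM in EV-recipient chondrocytes. The liver miRNA eca-miR-122 was at 0 RPM in EV-recipient synoviocytes and at 0 to 470 RPM in EV-recipient chondrocytes. The muscle miRNAs found reached 124 and 71.0 RPM in sum. The 6 blood cell miRNAs found in the tables summed to 55.0 to 17025 RPM in EV-recipient synoviocytes and 45.7 to 3680 RPM in EV-recipient chondrocytes. The highest sums of the blood cell and the epithelial miRNAs were both those of EV-recipient synoviocyte replicate 4, the shallowest library of its group. What part these miRNAs had in the values that follow was not tested. Counting intervals are Wilson intervals at 95% and cover counting error only, since PCR copies without molecular identifiers are not separate molecules.

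The pair ranked just below eca-miR-21 by mean RPM in both groups. eca-miR-221 stood at 32171, 72352, 56029 and 76031 RPM in EV-recipient synoviocytes (replicates 1 to 4) and at 90983, 80838, 139661, 78452 and 88755 RPM in EV-recipient chondrocytes (replicates 1 to 5). Every EV-recipient synoviocyte library lay below every EV-recipient chondrocyte library, although the gap between the groups, 76031 against 78452 RPM, was narrow. Groups that did not overlap in this direction were found for 10.2% of the 49 miRNAs tested, and in either direction for 16.3%. The means were 59146 ± 19974 RPM (SD, n = 4) in EV-recipient synoviocytes and 95738 ± 25107 RPM (SD, n = 5) in EV-recipient chondrocytes.

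eca-miR-222 stood at 26664, 77199, 60399 and 92764 RPM in EV-recipient synoviocytes and at 71356, 85280, 102295, 84558 and 72307 RPM in EV-recipient chondrocytes. The groups overlapped, and EV-recipient synoviocyte replicate 4 lay above 4 of the 5 EV-recipient chondrocyte libraries. The means were 64256 ± 28333 RPM (SD, n = 4) in EV-recipient synoviocytes and 83159 ± 12547 RPM (SD, n = 5) in EV-recipient chondrocytes. For both members the lowest library was EV-recipient synoviocyte replicate 1, which also held the most eca-miR-21 of all libraries, and the highest was EV-recipient chondrocyte replicate 3, which held the least.

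**Figure D1:**
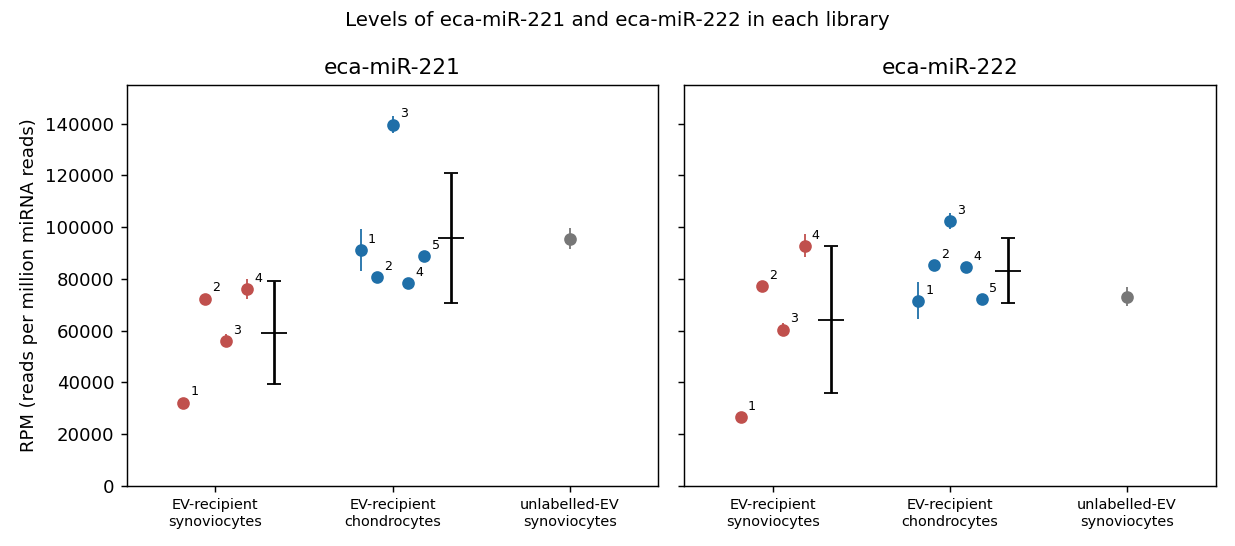
RPM of eca-miR-221 (left) and eca-miR-222 (right) in each library, by group; points are libraries with their replicate number and 95% counting interval, and black bars are the mean and SD. eca-miR-221 does not overlap between EV-recipient synoviocytes (32171 to 76031 RPM) and EV-recipient chondrocytes (78452 to 139661 RPM), while eca-miR-222 does.

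The order of the pair and its neighbours was not the same in the 2 groups. In EV-recipient synoviocytes eca-miR-222 ranked 2 and eca-miR-221 ranked 3 by mean RPM, followed by eca-miR-100 (50088 ± 10259 RPM) and eca-miR-26a (44942 ± 4399 RPM; SD, n = 4). In EV-recipient chondrocytes eca-miR-221 ranked 2 and eca-miR-222 ranked 3. The next were eca-miR-100 (68714 ± 17188 RPM) and eca-miR-26a (43961 ± 3691 RPM; SD, n = 5). Both members lay below eca-miR-21 in all 9 labelled libraries. Against eca-miR-26a, both lay above it in 3 of 4 EV-recipient synoviocyte libraries and in 5 of 5 EV-recipient chondrocyte libraries. In EV-recipient synoviocyte replicate 1 eca-miR-221 ranked only 6 and eca-miR-222 only 7. In the other 9 libraries both members ranked between 2 and 5. The ranges of eca-miR-221, eca-miR-222 and eca-miR-100 overlapped in both groups, so their order by mean is not larger than the spread between libraries.

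Whether the pair differed between EV-recipient synoviocytes and EV-recipient chondrocytes was examined with edgeR's quasi-likelihood test on the counts of the 9 labelled libraries, with Benjamini-Hochberg adjustment over the 49 miRNAs left by a filter on abundance. That filter asked for 2045 RPM in at least 2 libraries, and both members exceeded this level in all of them. The log2 fold change of eca-miR-221 was -0.57 (EV-recipient synoviocytes over EV-recipient chondrocytes; standard error 0.28; adjusted p = 0.293 from edgeR). That of eca-miR-222 was -0.25 (standard error 0.31; adjusted p = 0.648 from edgeR). Neither member therefore passed a threshold of 0.05, adjusted or not. Of the 49 miRNAs tested, 8.16% passed at an adjusted p under 0.05, and 18.4% at an unadjusted p under 0.05. The median log2 fold change of the 49 was 0.061. Ordered by p, eca-miR-221 came 11 and eca-miR-222 came 33.

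Over the 19 alternative fits, adjusted p ran from 0.134 to 0.997 for eca-miR-221 and from 0.299 to 0.997 for eca-miR-222, and both log2 fold changes were below 0 in each of them. At an unadjusted p under 0.05, eca-miR-221 passed in 7 of the 19 fits and eca-miR-222 in none. For eca-miR-221 they included the fits across all tested miRNAs with library size alone as the scaling (adjusted p = 0.141 from edgeR) and without EV-recipient synoviocyte replicate 4 (adjusted p = 0.134 from edgeR). Single libraries set much of the size of the difference. Without EV-recipient synoviocyte replicate 1 the log2 fold change was -0.39 for eca-miR-221 and -0.0096 for eca-miR-222, and without EV-recipient synoviocyte replicate 4 it was -0.75 and -0.53. Without EV-recipient chondrocyte replicate 3 it was -0.38 for eca-miR-221 and -0.16 for eca-miR-222.

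**Figure D2:**
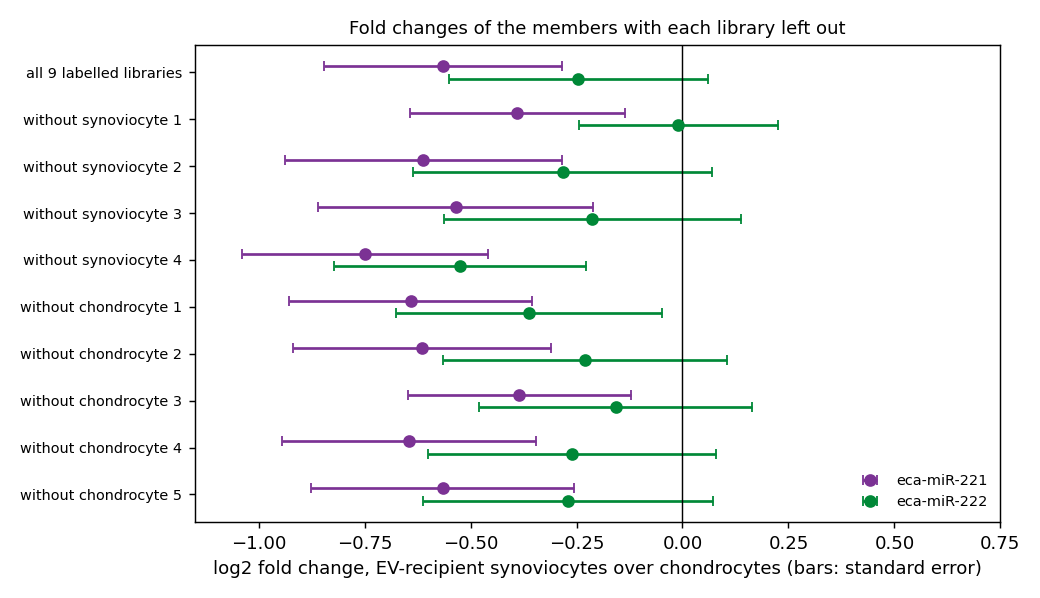
Log2 fold changes of both members (horizontal axis, EV-recipient synoviocytes over EV-recipient chondrocytes, bars are standard errors from edgeR) with all 9 labelled libraries and with each left out in turn. Values run from -0.75 to -0.38 for eca-miR-221 and from -0.53 to -0.0096 for eca-miR-222.

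The pair together held a large part of the miRNA pool. Its summed share of miRNA counts was 5.88, 15.0, 11.6 and 16.9% in EV-recipient synoviocytes and 16.2, 16.6, 24.2, 16.3 and 16.1% in EV-recipient chondrocytes. In EV-recipient chondrocytes 4 of the 5 libraries lay between 16.1 and 16.6%, with replicate 3 apart, whereas the shares of EV-recipient synoviocytes were spread over a 2.87-fold range. The mean share was 12.3 ± 4.82% (SD, n = 4) in EV-recipient synoviocytes and 17.9 ± 3.53% (SD, n = 5) in EV-recipient chondrocytes, a difference of -5.55 percentage points that did not pass the test (exact permutation test over 126 splits, two-sided, p = 0.0794, where the smallest possible p is 0.0159). EV-recipient synoviocyte replicate 4 was the only library of its group within the range of EV-recipient chondrocytes. Without it the difference was -7.06 points and the groups no longer overlapped (exact permutation p = 0.0357). That p is the smallest possible for so few libraries, and leaving out the only overlapping library fixed it. Without EV-recipient synoviocyte replicate 1 the difference was -3.40 points (exact permutation p = 0.179). When eca-miR-21 was left out of the total, the pair held 17.9 ± 5.97% (SD, n = 4) of the remaining counts in EV-recipient synoviocytes and 22.8 ± 3.62% (SD, n = 5) in EV-recipient chondrocytes (exact permutation p = 0.190). With spike-in counts added to the total, the pair held 3.67 ± 2.72% (SD, n = 4) in EV-recipient synoviocytes and 6.34 ± 4.48% (SD, n = 5) in EV-recipient chondrocytes, a difference of -2.66 points (exact permutation p = 0.333).

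The ratio of eca-miR-221 to eca-miR-222 within a library does not change with the total or the scaling factor by which its counts are divided. It was 1.21, 0.937, 0.928 and 0.820 in EV-recipient synoviocytes and 1.28, 0.948, 1.37, 0.928 and 1.23 in EV-recipient chondrocytes. eca-miR-221 exceeded eca-miR-222 in 1 of 4 EV-recipient synoviocyte libraries and in 3 of 5 EV-recipient chondrocyte libraries. Counting intervals excluded a ratio of 1 in all 10 libraries, and the ratios of the 2 groups overlapped.

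The EV-recipient chondrocyte libraries fell on both sides of equality. Replicates 2 and 4, with 444408 and 284774 miRNA counts the deepest of the group, had ratios of 0.948 (0.934 to 0.962) and 0.928 (0.911 to 0.945). Replicates 1, 3 and 5 had ratios of 1.28 (1.11 to 1.47), 1.37 (1.31 to 1.42) and 1.23 (1.19 to 1.27) at 4891, 39689 and 98608 miRNA counts. In EV-recipient synoviocytes the deepest library, replicate 1 with 436475 miRNA counts, had the highest ratio, 1.21 (1.18 to 1.24), and the shallowest, replicate 4 with 17151, had the lowest, 0.820 (0.762 to 0.882). A relation with depth was not tested within groups of 4 and 5 libraries. Over the 9 labelled libraries none was found for the log2 ratio, with a Pearson's r of -0.173 (permutation p = 0.649) and a Spearman's rho of 0 (permutation p = 1).

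**Figure D3:**
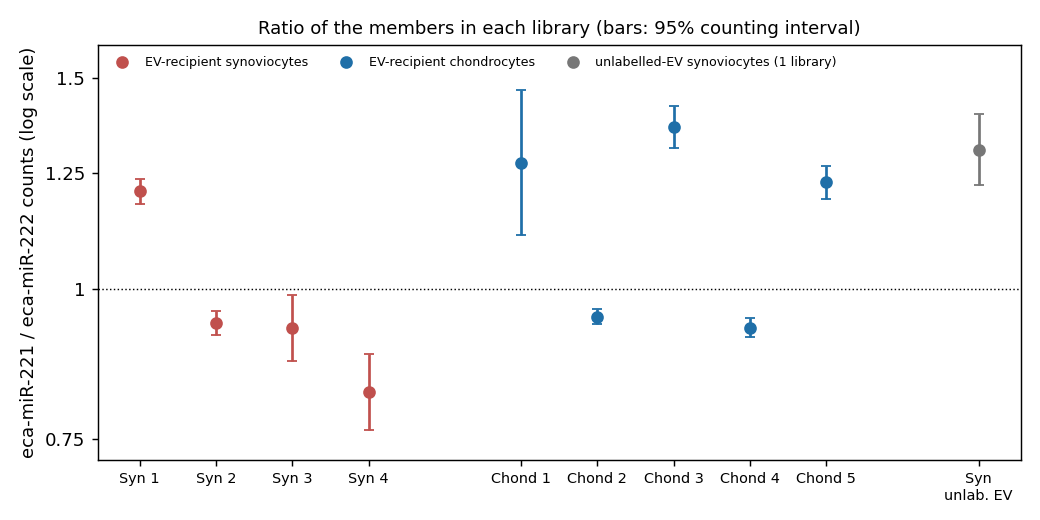
Ratio of eca-miR-221 to eca-miR-222 counts in each library on a log scale, with 95% counting intervals; the dotted line marks equal counts. EV-recipient synoviocytes run from 0.820 to 1.21, EV-recipient chondrocytes from 0.928 to 1.37, and the unlabelled-EV library is at 1.31.

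The difference in this ratio between the groups is also the test of whether the fold changes of the 2 members differ. The mean log2 ratio was -0.054 ± 0.23 (SD, n = 4) in EV-recipient synoviocytes and 0.18 ± 0.26 (SD, n = 5) in EV-recipient chondrocytes. The difference of -0.24 did not pass the test (exact permutation test over 126 splits, two-sided, p = 0.111). With each library left out in turn the difference ran from -0.34 to -0.16 and its exact permutation p from 0.0571 to 0.214. When counts were summed over the libraries of a group, so that the deep libraries weighed most, the difference turned to 0.059 (exact permutation p = 0.714). The direction therefore rests on how libraries are weighted.

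The spread of the ratio between libraries exceeded counting error alone. Horses and separately amplified libraries cannot be told apart here. Its SD on the log2 scale was 0.23 in EV-recipient synoviocytes and 0.26 in EV-recipient chondrocytes, while the counting error of a single library on that scale was 0.011 to 0.10. Against the levels themselves, the ratio was the steadier quantity in EV-recipient synoviocytes, where the log2 RPM had SDs of 0.57 for eca-miR-221 and 0.79 for eca-miR-222. In EV-recipient chondrocytes the SDs of log2 RPM, 0.34 for eca-miR-221 and 0.21 for eca-miR-222, were of about the size of the SD of the ratio.

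Over the 9 labelled libraries, each member was the miRNA whose log2 RPM followed the other most closely among the 39 miRNAs that passed the filter and had counts in every library. Pearson's r between them was 0.895 (permutation p = 0.00275; adjusted over 4 relations computed, p = 0.011), and Spearman's rho was 0.533 (permutation p = 0.146; adjusted p = 0.585). The relation rests on the 2 outermost libraries: without EV-recipient synoviocyte replicate 1 and EV-recipient chondrocyte replicate 3, r was 0.432 (permutation p = 0.335). Both values are shares of the same library total. Next to eca-miR-222, the miRNAs most like eca-miR-221 were eca-miR-27a (r = 0.820) and eca-miR-24 (r = 0.801), and next to eca-miR-221, those most like eca-miR-222 were eca-miR-24 (r = 0.793) and eca-miR-423-3p (r = 0.690). The most opposed to both was eca-miR-21, with r = -0.830 for eca-miR-221 and r = -0.782 for eca-miR-222. The SD of the log2 ratio of the pair over the 9 libraries was 0.26, against a median of 0.84 over the 741 pairs of those 39 miRNAs, and 8 pairs had a smaller one. Apart from eca-miR-21, the other miRNAs were rarer than the members by mean RPM. Ratios of rarer miRNAs carry more counting error, which was not removed here.

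No relation of the levels of the members with the depth of the labelled libraries was detected. Pearson's r between log2 RPM and log10 miRNA counts was -0.397 for eca-miR-221 (permutation p = 0.297) and -0.317 for eca-miR-222 (permutation p = 0.432), and rho was -0.283 (permutation p = 0.461) and -0.017 (permutation p = 0.982). Adjusted p over the 4 relations was 0.575 for both values of r. Without EV-recipient chondrocyte replicate 1 and EV-recipient synoviocyte replicate 4, the libraries whose depth lay farthest from the median, r was -0.430 for eca-miR-221, -0.336 for eca-miR-222 and -0.269 for the log2 ratio.

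**Figure D4:**
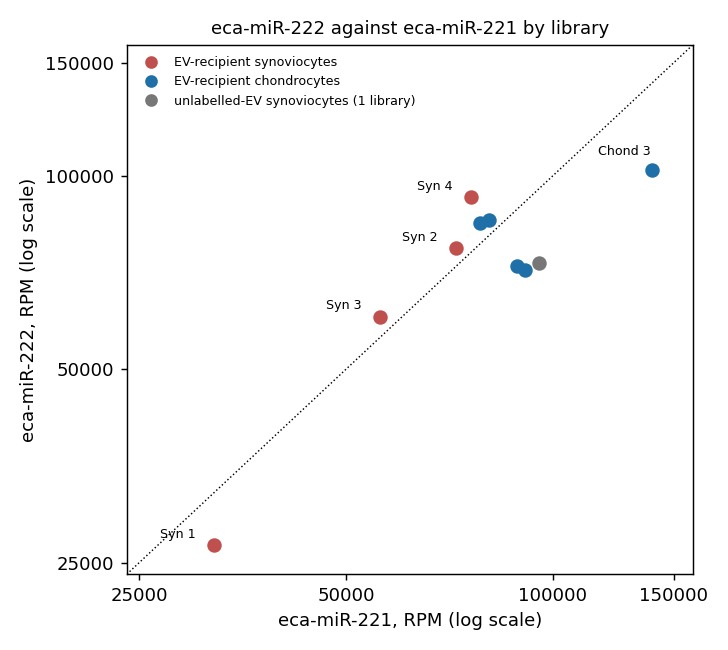
RPM of eca-miR-222 (vertical axis) against eca-miR-221 (horizontal axis) in each library, both on log scales, coloured by group; the dotted line marks equal levels. EV-recipient synoviocyte replicate 1 lies at the lower end, with 32171 and 26664 RPM, and EV-recipient chondrocyte replicate 3 at the upper end, with 139661 and 102295 RPM.

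Relative to the spike-in calibrators, synthetic RNAs added in equal volume to each sample before library preparation, the amounts of both members differed widely. eca-miR-221 gave 80.2, 67.9, 13.4 and 4.82 counts per 1000 spike-in counts in EV-recipient synoviocytes and 1.22, 190.1, 43.4, 113 and 34.1 in EV-recipient chondrocytes. eca-miR-222 gave 66.5, 72.4, 14.4 and 5.88 in EV-recipient synoviocytes and 0.957, 200.5, 31.8, 121.8 and 27.8 in EV-recipient chondrocytes. On this scale the groups overlapped for both members, and EV-recipient chondrocyte replicate 1 was the lowest of all libraries. With spike-in counts as library size the log2 fold change was -0.88 for eca-miR-221 (standard error 1.61) and -0.94 for eca-miR-222 (standard error 1.61), each with an adjusted p of 0.997 from edgeR.

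**Figure D5:**
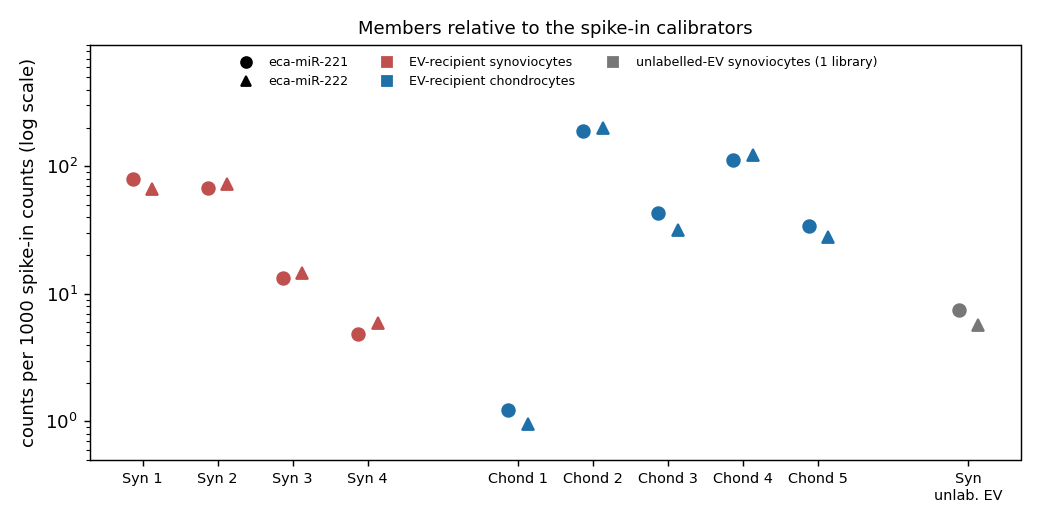
Counts of eca-miR-221 (circles) and eca-miR-222 (triangles) per 1000 spike-in counts in each library, on a log scale. Values span 4.82 to 80.2 for eca-miR-221 in EV-recipient synoviocytes and 1.22 to 190.1 in EV-recipient chondrocytes, with 7.51 in the unlabelled-EV library.

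The labelled libraries were next set beside the unlabelled-EV library, in which EVs carried no 5-EU. As it is a single library, no test was possible. eca-miR-221 stood at 32171 to 76031 RPM in EV-recipient synoviocytes and at 95573 RPM (91608 to 99691) in the unlabelled-EV library, above all 4. eca-miR-222 stood at 26664 to 92764 RPM in EV-recipient synoviocytes and at 73094 RPM (69596 to 76753) in the unlabelled-EV library, within their range. The summed share of the pair was 5.88 to 16.9% in EV-recipient synoviocytes and 16.9% (16.4 to 17.4%) in the unlabelled-EV library. The ratio of the members was 0.820 to 1.21 in EV-recipient synoviocytes and 1.31 (1.22 to 1.40) in the unlabelled-EV library, which lay within the range of EV-recipient chondrocytes. Per 1000 spike-in counts, eca-miR-221 gave 4.82 to 80.2 counts in EV-recipient synoviocytes and 7.51 in the unlabelled-EV library, above 1 of 4. eca-miR-222 gave 5.88 to 72.4 counts in EV-recipient synoviocytes and 5.75 in the unlabelled-EV library, below all 4. The labelled synoviocyte library nearest to it on this scale was replicate 4, at 4.82 for eca-miR-221 and 5.88 for eca-miR-222. The study reports a lower concentration of captured RNA for its synoviocyte control than for EV-recipient synoviocytes, without a statistical test. How much of the counts of labelled libraries came from RNA carried through the capture without the label was not tested.

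Other miRNAs with related roles were described by list. Over all 49 tested miRNAs, 18.4% passed at an unadjusted p under 0.05 in either direction, and 4 miRNAs passed as higher in EV-recipient synoviocytes. Of 8 miRNAs known in human cells to repress p27 or the related inhibitor p21, 7 had a row and 2 were abundant enough to be tested: eca-miR-181a was higher in EV-recipient synoviocytes at an unadjusted p under 0.05 (log2 fold change 2.24, adjusted p = 0.108 from edgeR), and eca-miR-93 had a log2 fold change of -0.18 (adjusted p = 0.648 from edgeR). Of the 3 other miRNAs that the study names as most abundant, a list chosen on these libraries, eca-miR-21 was higher at an unadjusted p under 0.05 (log2 fold change 0.76, adjusted p = 0.108 from edgeR). eca-miR-26a had a log2 fold change of 0.18 (adjusted p = 0.648 from edgeR) and eca-miR-100 one of -0.30 (adjusted p = 0.483 from edgeR). The median of the 3 was 0.18, against 0.061 over all 49 tested miRNAs. Among miRNAs known from other X-linked clusters of mammals, 20 rows were found and 3 tested. The most abundant were eca-let-7f and eca-miR-98, with log2 fold changes of 0.64 and 0.60 (adjusted p = 0.393 and 0.475 from edgeR), and eca-let-7f may also arise from a locus on another chromosome. None of the 3 passed at an unadjusted p under 0.05.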

How the data were processed

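The authors used the miND pipeline, set up for the horse (trimming by cutadapt 3.3 to 17 nt or longer, mapping by Bowtie 1.3.0 and miRDeep2 to EquCab3.0 with 2 mismatches and to miRBase horse entries with 1), and deposited whole-number counts of 239 miRNAs and 8 spike-in calibrators. The deposited RPM equalled count over miRNA total within 0.0409% for the members. RPM here were recomputed from counts. Members and lists were chosen with earlier results of these data known. Tests used edgeR 4.0.16 in R 4.3.3 (TMM, quasi-likelihood, miRNA counts as library size) and the filter of the study's methods. The fit was checked on simulated counts with planted log2 fold changes of 3 in either direction. These were larger than the changes of the members, so the check does not cover changes of their size. DESeq2 1.42.0 and limma 3.58.1 were alternatives. Exact permutation tests ran in Python 3.11.15, where two-sided p is 2 times the smaller tail. Relations used 100000 permutations. Depth was 4891 to 444408 miRNA counts. A floor of 3 counts is 613 RPM in the shallowest library. Replicate pairs differed beyond sampling noise (chi-square at least 11.9 times its degrees of freedom). Named miRNAs were the members, their neighbours by mean RPM, the 3 most alike, and listed miRNAs that passed or were most abundant. Coordinates are not given, as no genome was in use. One of the lists of other miRNAs fixed for this work is not reported here.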

Additional observations from a re-analysis of the deposited data

Results flagged for a closer look

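EV-recipient chondrocyte replicate 3 stood apart from the other 4 libraries of its group in eca-miR-221, at 139661 RPM against 78452 to 90983 RPM. Its summed share of the pair, 24.2%, and the share with eca-miR-21 left out of the total, 29.1%, also lay far from the rest. These 3 values are not independent, as each contains the same eca-miR-221 count. In 14 sets of values examined, chance alone flags about 1 in 20. eca-miR-222 of that library, 102295 RPM, was the highest of the group without standing apart to the same degree.

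The unlabelled-EV library, which entered no test between groups, held eca-miR-221 at 95573 RPM and eca-miR-222 at 73094 RPM, where 3 counts in that library would be 147.6 RPM.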

How the results depend on the processing

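Both members kept log2 fold changes below 0 and adjusted p above 0.05 in all 19 alternative fits. The count of miRNAs at an adjusted p under 0.05, 4 of 49 with edgeR's quasi-likelihood test, was 14 of 239 with no filter on low counts. It was 1 of 49 with limma on log2(RPM + 1) or log2(RPM + 10). With spike-in counts as library size it was 0 of 49 (also 0 at an unadjusted p under 0.05, edgeR only). It ran from 1 to 8 with each library left out, where the 8 were among 81 miRNAs that passed the filter without EV-recipient chondrocyte replicate 1. The replicate block, which also leaves out EV-recipient chondrocyte replicate 5, left 1, and leaving out that library alone also left 1. The block gave log2 fold changes of -0.58 for eca-miR-221 and -0.37 for eca-miR-222. It gave a difference in log2 ratio of -0.21 (exact sign-flip p = 0.125), the same difference as without that library alone. That p is the smallest possible for so few pairs, so this test could not have passed 0.05. The numbers do not pair the libraries, since same-numbered libraries come from different horses and their deviations correlated at -0.38 to 0.05. The median log2 fold change of all tested miRNAs was 0.061, -0.070 with library size alone and -0.13 with spike-ins. The difference in log2 ratio reversed to 0.059 with counts summed over a group and in the quasi-binomial model, which gives each library weight by its counts. Left-out libraries gave -0.34 to -0.16 for this difference, -7.06 to -3.40 points for the summed share, -0.75 to -0.38 for the log2 fold change of eca-miR-221 and -0.53 to -0.0096 for that of eca-miR-222. The correlation between the members was 0.432 without the 2 outermost libraries. Depth limits the ratio most in EV-recipient chondrocyte replicate 1, with 445 and 349 counts.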
